A study of Mus musculus with 12 samples.

Results

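Grk4, Grk5 and Grk6 encode 3 G protein-coupled receptor kinases (GRKs), and their rows were taken by symbol from a table of 20308 genes measured in 12 libraries of mouse urogenital sinus epithelium at embryonic day 15.5. The 3 genes were chosen because Grk4 stood far higher in one group than in the other, so their values in that contrast are given as a description, with no test. The Dnmt1cKO group held 8 libraries, from C57BL/6J embryos that had lost the DNA methyltransferase gene Dnmt1 in this epithelium through a Shh cre driver. The Control group held 4 libraries, from wildtype C57BL/6J embryos of the same age. Per the labels, trypsin served to separate epithelium and stroma, and a lysate combined the tissue of more than one embryo, so a library is a pool and not an embryo. Whether the Control embryos carried the Cre or the unrecombined Dnmt1 allele is not given in the sources used here.

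GRKs phosphorylate G protein-coupled receptors that have just been activated by their ligand. Arrestins then bind the phosphorylated receptor, uncouple it from its G protein and lead it into endocytosis, so that the cell stops responding. Grk4, Grk5 and Grk6 form a subfamily whose products sit at the membrane without the help of G protein subunits, unlike those of Grk2 and Grk3, which are recruited by the beta-gamma dimer, while Grk1 is the rhodopsin kinase of the retina. Grk4 transcripts are known above all from the testis, whereas Grk5 and Grk6 are expressed widely. Dnmt1 copies methyl marks on CpG dinucleotides to the new DNA strand after replication.

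Because CpG is the dinucleotide on which the deleted enzyme acts, the annotated starts of the 3 genes are shown with every CpG in capitals. Each window runs from 250 bases before to 50 bases after a RefSeq transcript start, on build GRCm38.p6 (the assembly also called mm10) and on the plus strand, on which all 3 genes lie. The windows are chr5:34660129-34660428 for Grk4, chr19:60889499-60889798 for Grk5 and chr13:55445079-55445378 for Grk6.
Grk4: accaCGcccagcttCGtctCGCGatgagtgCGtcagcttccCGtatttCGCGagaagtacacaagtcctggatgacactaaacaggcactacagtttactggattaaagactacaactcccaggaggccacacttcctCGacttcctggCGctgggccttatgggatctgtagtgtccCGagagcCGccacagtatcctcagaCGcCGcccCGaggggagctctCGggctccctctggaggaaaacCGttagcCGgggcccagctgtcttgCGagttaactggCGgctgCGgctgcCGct
Grk5: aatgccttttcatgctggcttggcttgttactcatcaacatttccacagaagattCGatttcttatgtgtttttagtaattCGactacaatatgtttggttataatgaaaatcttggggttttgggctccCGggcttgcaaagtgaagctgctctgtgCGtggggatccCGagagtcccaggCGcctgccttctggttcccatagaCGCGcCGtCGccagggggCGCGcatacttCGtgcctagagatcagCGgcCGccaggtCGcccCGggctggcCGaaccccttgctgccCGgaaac
Grk6: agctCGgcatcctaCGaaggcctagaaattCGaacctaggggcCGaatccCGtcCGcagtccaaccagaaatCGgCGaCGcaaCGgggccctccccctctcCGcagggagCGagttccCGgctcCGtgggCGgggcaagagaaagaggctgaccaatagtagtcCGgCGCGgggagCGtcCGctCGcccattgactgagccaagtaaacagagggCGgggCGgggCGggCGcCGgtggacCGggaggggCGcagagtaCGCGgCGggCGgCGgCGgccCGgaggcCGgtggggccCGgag

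The Grk4 window held 22 CpG dinucleotides, a number reached by 23.1% of the 32851 RefSeq promoter windows of mouse. The Grk5 window held 19, reached by 28.1% of windows, and the Grk6 window held 37, reached by 5.58%. An upstream Grk6 start had 19 CpG dinucleotides in its own window. The median over all windows was 7, so all 3 genes begin in sequence richer in CpG than the median promoter, and the count in Grk4 lay near that in Grk5. The motif CG is its own reverse complement, so a count holds for both strands. Methylation was not measured in these libraries.

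Sequencing depth differed between the libraries. The Dnmt1cKO libraries held 4007533 to 11970907 expected counts and 10205 to 13837 detected genes, against 543591 to 7577706 expected counts and 6744 to 13116 detected genes in the Control libraries. Dnmt1 itself stood at 22.8 to 97.0 CPM (counts scaled to the library total, with totals adjusted by the TMM method) in Dnmt1cKO and, among the Controls, at 164 (Control 1), 114 (Control 2) and 237 CPM (Control 3). The fourth Control library had 1 Dnmt1 count (2.84 CPM, exact Poisson 95% interval 0.072 to 15.8 CPM), which taken alone goes against its label. The value lay below the Dnmt1cKO range as well, and Htt had 0 counts and Grk6 1 count in this shallow library. Pmaip1, a gene described below, stood at 89.9 to 292 CPM in Dnmt1cKO and had 0 counts there. Whether the label is right was not tested, and this library is called the library labelled Control 4. The log2 fold change of Dnmt1 was -1.29 ± 0.63 (SE) and was not called (edgeR adjusted p = 0.284), and without the library labelled Control 4 it was -1.60 ± 0.41 (SE; edgeR adjusted p = 0.0815). That library and Control 3 had the fewest counts and detected genes, and values are given below with and without them.

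Grk4 was abundant in every Dnmt1cKO library and scarce or moderate in every Control library. It stood at 441, 404, 616, 275, 461, 652, 289 and 250.2 CPM in Dnmt1cKO 1 to 8, against 44.4 (Control 1), 52.3 (Control 2), 5.28 (Control 3) and 8.53 CPM (the library labelled Control 4). The groups did not overlap: the lowest Dnmt1cKO library lay well above the highest Control, and within each group Dnmt1cKO 3 and 6 and Controls 1 and 2 were the highest. The 2 low Control values rest on 7 counts (exact Poisson 95% interval 2.12 to 10.9 CPM) in Control 3 and 3 counts (1.76 to 24.9 CPM) in the library labelled Control 4, and such intervals cover counting error only, since no molecular identifiers are described. Controls 1 and 2 held 361 and 155 counts, so Grk4 was detected in wildtype epithelium. The means were 424 ± 152 CPM in Dnmt1cKO and 27.6 ± 24.2 CPM in Control (SD, n = 8 and 4), a fitted 14.6-fold difference (log2 fold change 3.87 ± 0.58, SE, edgeR). Among the 12761 genes with enough counts to be tested, Grk4 ranked 325th by mean CPM in Dnmt1cKO and 5869th in Control.

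The size of the Grk4 difference was also fitted with libraries left out. Leaving out each library in turn gave log2 fold changes from 3.52 (without Control 3) to 4.34 (without Control 2), and leaving out both Control 3 and the library labelled Control 4 gave 3.20 ± 0.44 (SE). In limma-voom with sample quality weights it was 3.47. Groups without overlap and with Dnmt1cKO on top were found for 2.59% of tested genes. Since Grk4 was selected on this contrast, nothing is read from that share, and the direction in these fits was fixed by the selection. A large difference in them was likewise to be foreseen, so these fits describe its range and are no independent support.

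Grk5, the member with the lowest level in Dnmt1cKO, was low in both groups. It stood at 5.33, 0.224, 7.09, 18.2, 4.39, 9.59, 11.5 and 9.98 CPM in Dnmt1cKO 1 to 8, against 9.34 (Control 1), 8.77 (Control 2), 0 (Control 3) and 51.2 CPM (the library labelled Control 4). The groups overlapped over most of their range, with a single count in Dnmt1cKO 2 at the low end and the library labelled Control 4 alone at the high end. That highest value rests on 18 counts (exact Poisson 95% interval 30.3 to 80.9 CPM), and the 0 in Control 3 allows a level of up to 2.26 CPM (3 counts). The means were 8.28 ± 5.38 CPM and 17.3 ± 23.0 CPM (SD, n = 8 Dnmt1cKO and 4 Control), with a log2 fold change of -0.997 ± 1.13 (SE, edgeR). The sign turned to 0.49 without the library labelled Control 4 and the value was -0.066 without it and Control 3, so no direction can be given for Grk5.

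Grk6, the most abundant of the 3 in Controls 1 and 3, overlapped between the groups. It stood at 61.6, 106, 56.1, 61.7, 49.8, 61.4, 39.2 and 23.1 CPM in Dnmt1cKO 1 to 8, against 61.8 (Control 1), 22.6 (Control 2), 94.99 (Control 3) and 2.84 CPM (the library labelled Control 4). The Dnmt1cKO values and those of Controls 1 to 3 overlapped, and the value of the library labelled Control 4 was 1 count (exact Poisson 95% interval 0.072 to 15.8 CPM). The means were 57.4 ± 24.0 CPM in Dnmt1cKO and 45.6 ± 41.1 CPM in Control (SD, n = 8 and 4). The log2 fold change was 0.31 ± 0.71 (SE, edgeR), 0.018 without the library labelled Control 4 and 0.91 without Control 3, each smaller than the pooled SD of 1.31 between libraries on the log2 scale. The pooled SD of Grk4 on that scale was 0.998.

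**Figure D1:**
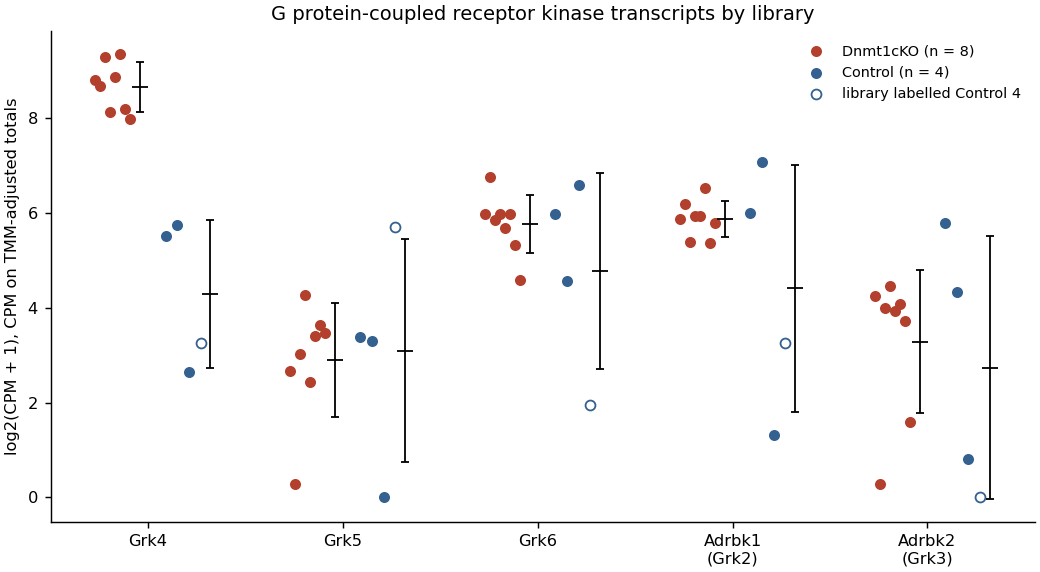
Levels of Grk4, Grk5, Grk6 and the more distant relatives Adrbk1 (Grk2) and Adrbk2 (Grk3) by library, as log2(CPM + 1), with Dnmt1cKO left of Control and the mean ± SD beside each group. The Grk4 points of the 8 Dnmt1cKO libraries (250.2 to 652 CPM) lie above those of the 4 Control libraries (5.28 to 52.3 CPM), while the groups overlap for the other 4 genes.

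Counts of the 3 genes within a library share its depth and its scaling factor, so their proportions do not depend on the normalization. Grk4 supplied 77.5% to 90.7% of the 3 genes' counts in the Dnmt1cKO libraries. In Controls 1, 2 and 3 it supplied 38.4% (exact binomial 95% interval 35.3 to 41.6%), 62.5% (56.2 to 68.5%) and 5.26% (2.14 to 10.5%), and in the library labelled Control 4 13.6% of only 22 counts (2.91 to 34.9%). Grk4 was the largest part in every Dnmt1cKO library, and among the Controls only in Control 2. Grk6 supplied 8.16% to 20.8% in Dnmt1cKO and 53.5% (Control 1), 27.0% (Control 2), 94.7% (Control 3) and 4.55% (the library labelled Control 4) in the Controls. Grk5 supplied 81.8% in the library labelled Control 4. Grk5 made up at most 5.11% in any Dnmt1cKO library and 8.09% and 10.5% in Controls 1 and 2.

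**Figure D2:**
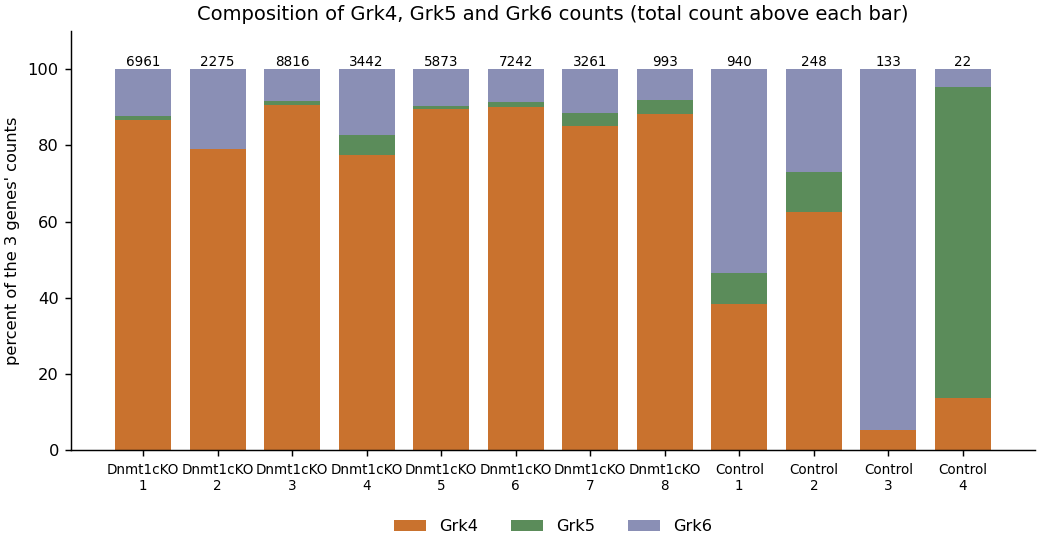
Percent of the summed counts of Grk4, Grk5 and Grk6 that came from each gene, per library, with Dnmt1cKO left of Control and the summed count above each bar. Grk4 takes 77.5% to 90.7% of every Dnmt1cKO bar, and the Control bars differ from one another, the last resting on 22 counts.

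Levels were compared between the genes per kilobase of their longest annotated coding transcript, 3234 nt for Grk4, 6580 nt for Grk5 and 2994 nt for Grk6. On this scale Grk4 averaged 131 ± 47.0 CPM per kilobase in Dnmt1cKO and 8.54 ± 7.47 in Control, Grk6 averaged 19.2 ± 8.01 and 15.2 ± 13.7, and Grk5 averaged 1.26 ± 0.818 and 2.63 ± 3.49 in the same 2 groups (SD, n = 8 and 4). In all 8 Dnmt1cKO libraries the order of the levels per kilobase was Grk4, Grk6, Grk5, and neighbouring genes in that order were separated by more than their SDs. In the Controls the order differed: Grk6 was highest in Controls 1 and 3, Grk4 in Control 2, and Grk5 in the library labelled Control 4, and the SDs of Grk4 and Grk6 overlapped. In Control 1, the deepest Control, Grk4 stood at 13.7 and Grk6 at 20.7 CPM per kilobase, and in Control 2 at 16.2 and 7.55. The wildtype level of Grk4 was therefore of the same order as that of Grk6 in the 2 Controls with the most counts.

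The descriptions hold a numbered code (b4, for instance) that is nowhere explained, and numbers 4 to 7 occur in both groups. Within codes 4, 5, 6 and 7, each with 1 Control library, Grk4 differed between Dnmt1cKO and Control by 3.79, 2.39, 6.38 and 5.36 (log2 CPM). All were upward, a direction fixed in advance, because Grk4 was selected on this contrast and its groups do not overlap. The median difference over all tested genes was -0.031, 0.20, 1.79 and 3.01 in the same codes, so in codes 6 and 7, whose Controls are Control 3 and the library labelled Control 4, much of the table was higher as well. Grk6 differed by -0.14, 1.44, -0.93 and 3.63, and Grk5 by -0.38, 1.03, 4.10 and -2.28. Neither of these had the same sign in all codes. An edgeR fit that blocked on the code gave Grk4 a log2 fold change of 4.49 ± 0.71 (SE). It held only the libraries of codes 4 to 7, without Dnmt1cKO 1 and 2, and the median log2 fold change of all genes in it was 1.07.

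Among the Dnmt1cKO libraries the Grk4 level varied with a coefficient of variation of 35.9%, against 41.7% for Grk6 and 65.0% for Grk5. Across the 8 libraries the Pearson correlation of log2 CPM was 0.49 between Grk4 and Grk6, -0.22 between Grk4 and Grk5 and -0.63 between Grk5 and Grk6. These are descriptions over libraries that also differ in depth and in other cell types. Dnmt1cKO 2 had the highest Grk6 level and a single Grk5 count. With Dnmt1, Grk4 had a correlation of -0.32 across the same 8 libraries.

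The reads counted for Grk4 may be shared with other genes, and the table itself carries a sign of how they were assigned. The expected counts were estimated by software that splits reads matching several genes, so a gene whose reads are unique has whole numbers. Grk4 had a fractional value (more than 0.004 from a whole number) in 12 of 12 libraries, a property of 1.86% of the tested genes. Among its relatives, Grk5 had none in 11 libraries with a count, Grk6 1 of 12, Adrbk1 (Grk2) 1 of 12, Adrbk2 (Grk3) 3 of 11 and Grk1 7 of 9.

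The annotated Grk4 transcripts show where such sharing is possible. In GENCODE M21, on the same build, Grk4 lies on chromosome 5 from 34660379 to 34755305, plus strand. Its coding transcript Grk4-201 has 16 exons and 2408 nt. Another coding transcript, Grk4-202, has the first 5 of these exons in common and then ends in exon 6, from 34698863 to 34701082. Grk4-202 is the longer RNA, at 3234 nt, the length used above for levels per kilobase. Its exon 6 is 2220 nt long with 91 coding nt. The coding part of Grk4-202 is the shorter one, 531 nt against 1722 nt in Grk4-201. Of the 31-base words in the last exon of Grk4-202, 27.8% also occur in transcripts of other genes, on either strand, and over the whole transcript the share is 19.0%. In Grk4-201 it is 0%. A share of 19.0% or more is found in 18.9% of the 58793 coding transcripts, and 47.3% have none. The highest share among coding transcripts of Grk5 was 2.47%, and of Grk6 3.36%. The table gives one value per gene, so the transcripts cannot be told apart in it, and the annotation the authors used is not given.

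**Figure D3:**
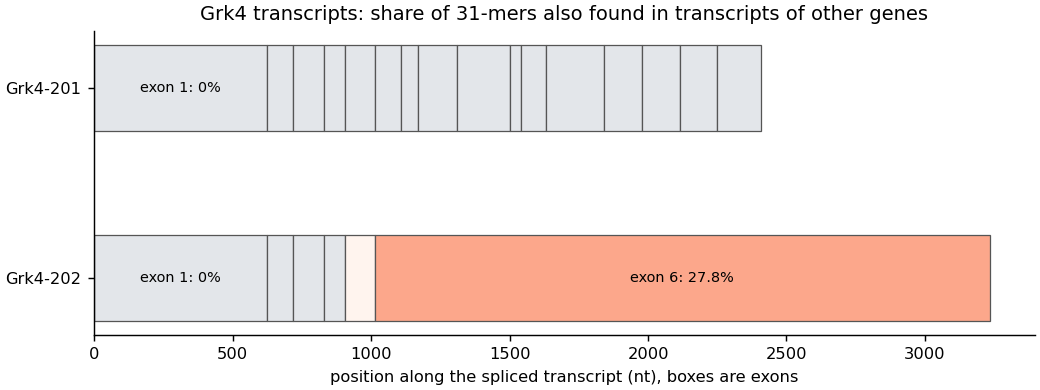
The 2 longest coding Grk4 transcripts drawn to scale in nt along the spliced RNA, with exons as boxes shaded by the share of 31-base words also found in other genes' transcripts. Sharing lies almost wholly in exon 6 of Grk4-202 (27.8%), and no exon of Grk4-201 has any.

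Genes that share sequence with Grk4-202 were taken from the 31-base words. At least one 31-base word was shared with 452 genes, of which 223 are in the table and 96 were tested. Their median log2 fold change was 0.23, against 0.22 over all tested genes. Of the 96, edgeR called 2 higher and 6 lower, while 1.03% and 1.55% of all tested genes were called higher and lower. Without the library labelled Control 4 the counts were 0 and 1 of 100 tested, beside 0.449% and 0.27% of all genes. The called genes are named after their values were seen. The 6 lower ones were Dync1i2, Cep170, Zfp300, Lpl, Cd34 and Mcmdc2, with log2 fold changes of -1.50, -2.47, -3.81, -4.15, -4.41 and -5.65 (edgeR adjusted p = 0.00381 to 0.0411). The 2 higher ones were Uba1y, a Y-linked gene for a ubiquitin-activating enzyme, and Vmn1r58, a gene of the vomeronasal receptor family. Uba1y stood at 9.59 to 61.1 CPM in Dnmt1cKO and 0 to 0.984 CPM in Control. Vmn1r58 stood at 317 to 826 CPM in Dnmt1cKO and 21.2 to 289 CPM in Control. Their log2 fold changes were 5.04 and 2.01 (edgeR adjusted p = 0.0293 and 0.0313). The part of shared reads in the level of Grk4 was not tested.

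Overlap with genes on the other strand is a further limit, because the use of strand in counting is not given. The antisense gene Gm42560 (chromosome 5, 34679523 to 34706831, minus strand) spans exon 6 of Grk4-202, and Zfp950 (chromosome 19, 61053840 to 61140840, minus strand) overlaps the 3′ end of Grk5. Neither was analysed here. Reads of a gene and its antisense partner cannot be told apart without strand.

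The genes beside the 3 kinases were examined for changes in the same direction. Nop14, which acts in ribosome assembly, lies head to head with Grk4, and its RefSeq start, at 34660148 on the minus strand, falls in the Grk4 window printed above. It stood at 147, 79.2, 159, 130, 177, 203, 204 and 130.4 CPM in Dnmt1cKO 1 to 8, against 57.8 (Control 1), 108 (Control 2), 16.6 (Control 3) and 19.9 CPM (the library labelled Control 4). Only Control 2 reached into the Dnmt1cKO range, above Dnmt1cKO 2. Nop14 averaged 154 ± 41.8 CPM in Dnmt1cKO and 50.6 ± 42.7 CPM in Control (SD, n = 8 and 4). Its log2 fold change, 1.57 ± 0.57 (SE), missed the threshold in edgeR (Benjamini-Hochberg adjusted p = 0.136). It passed in DESeq2 (adjusted p = 0.0494, with 4.08% of all genes called higher). Without Control 2 it also passed (edgeR adjusted p = 0.0416, with 0.908% of all genes called higher), and in the other alternatives it was not called. Within codes 4 to 7 the difference for Nop14 was 1.46, 0.26, 3.39 and 3.12 on the log2 scale. The median over all tested genes in the same codes was -0.031, 0.20, 1.79 and 3.01, so in codes 5 and 7 Nop14 lay near that median. Each difference was smaller than that for Grk4, which was selected on this contrast.

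On the other side, Htt, the huntingtin gene, begins 6416 bp beyond Grk4 and had a log2 fold change of -0.47 ± 0.74 (SE; edgeR adjusted p = 0.791). It ranged from 25.7 to 82.6 CPM in Dnmt1cKO and from 0 to 204 CPM in Control. Of the 17 genes nearest to Grk4, Grk5 and Grk6 in the table (up to 3 on each side, with 5 for Grk5), 13 were tested. EdgeR called 0 of them, while it called 1.03% of all genes higher and 1.55% lower. By an unadjusted p under 0.05, 2 neighbours were higher and 1 lower, beside 8.19% and 9.54% of all genes. Limma-voom called 0 (0.0549% and 0.196% of all genes), and DESeq2 had Nop14 as higher and Add1 as lower (4.08% and 8.16% of all genes). Add1, which encodes a protein of the membrane skeleton, had an edgeR log2 fold change of -1.37 ± 0.44 (SE; adjusted p = 0.0865), and its highest level, 1044 CPM, was in the library labelled Control 4. It was called lower with RLE factors (edgeR adjusted p = 0.018), without Control 1 (0.0254) and without Control 2 (0.0411). In these settings 5.69%, 3.75% and 3.04% of all genes were called lower. Gm7102, beside Grk5, was called higher without Control 3 (edgeR adjusted p = 0.00844, with 0.96% of all genes called higher) and with the code as a block (edgeR adjusted p = 0.000199, with 1.1% of all genes called higher). Beside Grk6, Slc34a1, Pfn3 and F12 had 0 counts in all libraries, and Prr7, Dbn1 and Pdlim7 had log2 fold changes of -3.20, -0.21 and 0.76, none of them called in edgeR (adjusted p = 0.304 to 0.838).

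In the other tested GRK genes the groups overlapped. Adrbk1, the row for Grk2, which is the broadly expressed receptor kinase, stood at 39.9 to 90.4 CPM in Dnmt1cKO (median 58.4), against 62.3 (Control 1), 133 (Control 2), 1.51 (Control 3) and 8.53 CPM (the library labelled Control 4). Control 2 lay above all Dnmt1cKO libraries and Control 3 and the library labelled Control 4 below all of them, and the log2 fold change of 0.18 ± 0.74 (SE) was not called (edgeR adjusted p = 0.932). It was -0.65 ± 0.37 (SE; edgeR adjusted p = 0.588) without Control 3 and the library labelled Control 4. Adrbk2, the row for Grk3, stood at 0.224 to 20.9 CPM in Dnmt1cKO (median 14.5), against 53.7 (Control 1), 19.2 (Control 2), 0.754 (Control 3) and 0 CPM (the library labelled Control 4), with a log2 fold change of -0.63 ± 1.07 (SE; edgeR adjusted p = 0.812). Without Control 1 its sign turned to 0.76. Grk1, the rhodopsin kinase, had 26 counts over all Dnmt1cKO libraries and 27 over all Control libraries, 26 of the latter in Control 1. It averaged 0.36 CPM in Dnmt1cKO and 0.99 CPM in Control and was too low to be tested.

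**Figure D4:**
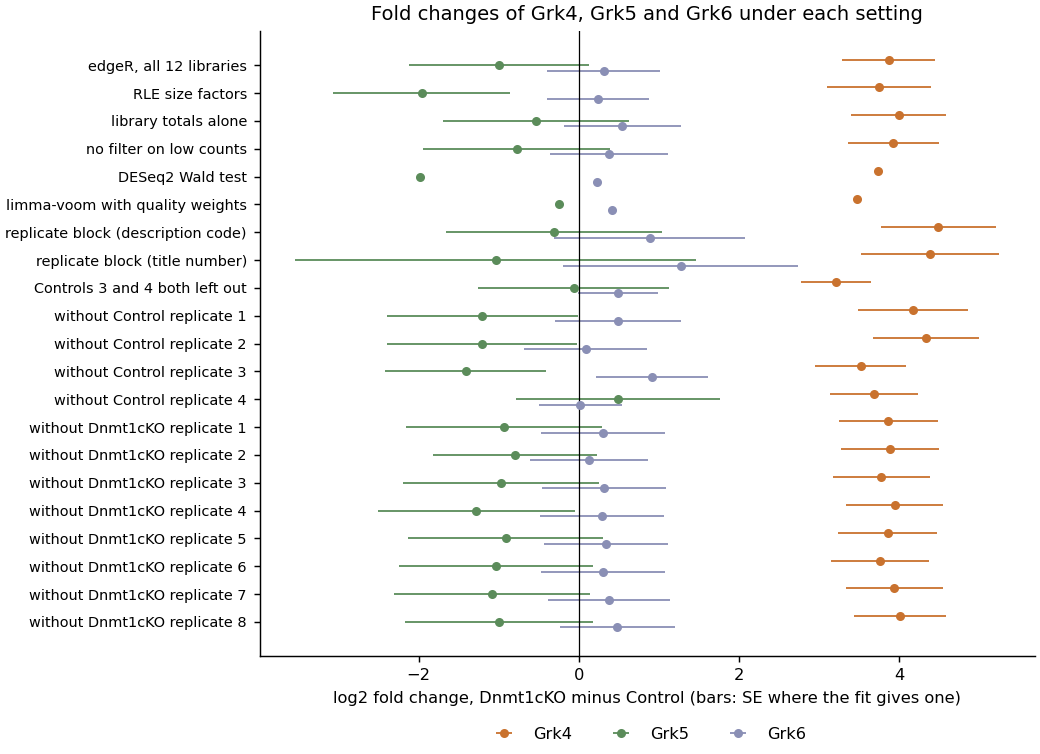
Log2 fold changes (Dnmt1cKO minus Control) of Grk4, Grk5 and Grk6 in edgeR with all 12 libraries and under each alternative setting, with SE where the fit gives one. Grk4 lies between 3.20 and 4.49 in every setting shown, while Grk5 changes sign without Control replicate 4 (the library labelled Control 4) and Grk6 stays between 0.018 and 1.27.

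Arrestins, which bind receptors after a GRK has phosphorylated them, form the next step of the pathway. Arrb1 and Arrb2, the beta-arrestins, stood at 19.3 ± 14.7 and 3.85 ± 2.95 CPM in Dnmt1cKO and at 7.48 ± 8.33 and 2.18 ± 4.36 CPM in Control (SD, n = 8 and 4). Their log2 fold changes of 1.26 ± 1.05 and 0.65 ± 1.53 (SE) were not called (edgeR adjusted p = 0.575 and 0.869). The related Arrdc4, an adaptor for ubiquitin ligases, stood at 44.3 ± 13.4 CPM in Dnmt1cKO and 13.3 ± 18.6 CPM in Control (SD, n = 8 and 4). Its log2 fold change was 1.66 ± 0.87 (SE; edgeR adjusted p = 0.322). It was called without Control 1 (edgeR adjusted p = 0.0363, with 4.99% of all genes called higher). Arrdc3 was the most abundant arrestin-like gene, at 153 ± 35.8 CPM and 172 ± 116 CPM in the same 2 groups, Arrdc1 had a log2 fold change of 0.90 and Arrdc2 one of -2.07, and none of these was called (edgeR adjusted p = 0.489 to 0.89). Sag, Arr3 (the visual arrestins) and Arrdc5 had 0 counts in every library, which in the deepest library allows a level of up to 0.219 CPM.

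Around these genes the signalling machinery was searched by lists. Together they hold 142 genes of the table besides the 3 kinases, 96 of them tested, and their median log2 fold change was 0.18, against 0.22 over all tested genes. EdgeR called 0 higher and 0 lower of the 96, while it called 1.03% of all genes higher and 1.55% lower, and by unadjusted p there were 9 higher and 5 lower, beside 8.19% and 9.54% of all genes. Limma-voom called 0 (0.0549% and 0.196% of all genes). By contrast DESeq2 called 3 higher and 4 lower of 95, and 4.08% and 8.16% of all genes. These, named after their values were seen, were Rgs9, Fzd6 and Prkacb as higher and Calm3, Gng2, Prkce and Rock1 as lower. Without Control 3 and the library labelled Control 4 edgeR called 0 of 110, and 0.322% and 0.0143% of all genes. By unadjusted p, 7 were higher and 3 lower there, beside 6.96% and 2.22% of all genes. Without Control 1 it called 4 higher and 2 lower of 99, and 4.99% and 3.75% of all genes. With RLE factors 2 were lower (5.69% of all genes), without the filter 2 (1.35%) and without Control 2 there were 3 (3.04%).

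Single lists were described by their medians, which moved widely between settings, as did that of all genes (0.072 to 1.07). Regulators of GRK activity, 10 tested, had a median log2 fold change of -0.31, with alternatives from -0.48 to 0.45 (0.29 without Control 3). RGS proteins, which speed up the shut-off of G proteins, had a median of 1.08 over 13 tested, with alternatives from 0.15 in limma-voom to 4.07 without Control 1. Rgs12, the most abundant, stood at 66.4 ± 12.4 and 72.8 ± 50.1 CPM in the same groups (edgeR adjusted p = 0.935). G protein subunits, 24 tested, had a median of 0.13, with alternatives from -0.056 to 0.81. Gnas, which encodes the stimulatory alpha subunit, was the most abundant at 1104 ± 193 and 873 ± 541 CPM (edgeR adjusted p = 0.726).

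Receptors reported as GRK substrates, 21 tested, had a median log2 fold change of -0.028, with alternatives from -0.19 to 1.04. Their most abundant member was Fzd6, a Frizzled receptor, at 144 ± 33.1 CPM in Dnmt1cKO and 34.8 ± 28.9 CPM in Control (SD, n = 8 and 4), without overlap between the groups. Such a lack of overlap, with Dnmt1cKO on top, was found for 2.59% of tested genes, among them Gnai3 of the G protein subunits. The log2 fold change of Fzd6, 1.99 ± 0.62 (SE), missed the threshold in edgeR (adjusted p = 0.0749). It passed in DESeq2 (adjusted p = 0.00488), which called 4.08% of all genes higher. AGC kinases, the larger kinase group to which GRKs belong, had a median of 0.31 over 20 tested, with alternatives from -0.22 to 1.31. Rock1, which acts on the actin cytoskeleton, was the most abundant at 266 ± 57.9 and 707 ± 625.1 CPM in the same groups, with a log2 fold change of -1.41 ± 0.41 (SE; edgeR adjusted p = 0.0554).

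**Figure D5:**
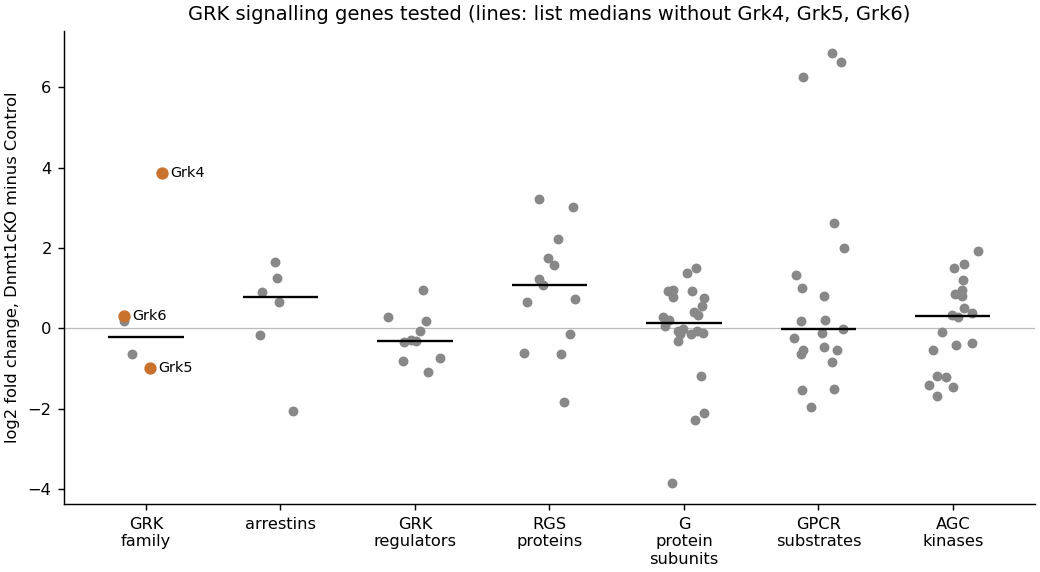
Log2 fold changes (Dnmt1cKO minus Control, edgeR) of the tested members of each signalling list, 1 point per gene, with the median of each list without Grk4, Grk5 and Grk6 as a line. Medians lie between -0.31 and 1.08, Grk4 stands at 3.87, and the 3 points above it in the receptor list (Agtr1a, Chrm3 and Vipr2) had 0 counts in all Controls and were not called.

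The genes whose log2 CPM followed Grk4 most closely over the 12 libraries were Cd44, a receptor for hyaluronan (Pearson r = 0.965), Slc22a23, a member of an organic ion transporter family (0.960), Pmaip1, the gene of the pro-apoptotic protein Noxa (0.960), Gm21967 (0.958) and Hoxd13, a homeobox gene of the hind end of the body (0.958). Their log2 fold changes between Dnmt1cKO and Control were 4.39, 3.26, 4.52, 3.02 and 2.13. The likeness describes 12 libraries that fall into 2 groups and was the highest of 12760 genes compared. Over the 8 Dnmt1cKO libraries alone the closest were Rbm12, an RNA-binding protein (0.954), Lman2, a cargo receptor of the secretory pathway (0.950), F830016B08Rik (0.945), Ptprg, a receptor phosphatase (0.940) and Snx19, a sorting nexin (0.922). No gene was in both lists.

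Summed levels of markers of other cell types are set beside these results. All 15 stromal markers were in the table, and their summed level was 359 to 6749 CPM in Dnmt1cKO (median 1925) and 1342 to 11414 CPM in Control (median 5666). The 8 endothelial markers summed to 9.56 to 104 CPM in Dnmt1cKO and 40.1 to 310 CPM in Control, and the 8 immune markers to 13.6 to 68.7 and 2.84 to 212 CPM. The 8 erythroid markers summed to 10.5 to 1540 CPM and 429 to 5826 CPM, and the 8 neural and glial markers to 4.38 to 248 and 19.9 to 504 CPM, in the same order. The 15 epithelial markers, which check the labelled tissue, summed to 5342 to 8812 CPM in Dnmt1cKO and 3910 to 27696 CPM in Control, the highest being the library labelled Control 4. In bulk tissue, fewer cells of a type and less RNA per cell cannot be told apart. Across the 8 Dnmt1cKO libraries Grk4 had a correlation of -0.59 with the stromal, -0.60 with the endothelial and -0.54 with the erythroid sum. With the neural and glial, immune and epithelial sums it was -0.44, -0.20 and 0.26. With the total count of the library it was 0.50, and 0.84 over all 12 libraries, whose depth differs between the groups. Their part in the spread of Grk4 was not tested.

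The 10 germ cell markers summed to 548 to 927 CPM in Dnmt1cKO and to 11.3 to 227 CPM in Control. The highest Control was the library labelled Control 4, with 8 of the 10 at 0. In Controls 1, 2 and 3 the markers at 0 numbered 6, 7 and 6. Sycp1, Sycp3, Ddx4 and Stk31 were at 0 in all 4 Controls, while every Control had counts for others of the list. Across the 8 Dnmt1cKO libraries this sum had a correlation of 0.49 with Grk4. The part of germ cell genes in the level of Grk4 was not tested. Grk4 also had counts in all Control libraries.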

How the data were processed

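RNA of 12 libraries was measured by polyadenylated RNA sequencing. The authors deposited 1 table of expected counts per gene symbol, which are estimated counts. RSEM 1.2.3 with Bowtie 0.12.9, after bcl2fastq 2.17.1.14, is named for build mm10 per the submitters' processing notes. Neither annotation nor use of strand is given in the sources used here. The values were rounded to whole numbers. Dnmt1cKO and Control were compared with the quasi-likelihood test of edgeR 4.0.16 (R 4.3.3) with TMM scaling, genotype as the only term and the filterByExpr filter (minimum count 10, minimum total 15). Benjamini-Hochberg adjustment ran over the 12761 tested genes, an adjusted p under 0.05 was called, and the SE of a log2 fold change is its size divided by the square root of the F statistic. Log2 CPM used a prior count of 2. Alternatives were DESeq2 1.42.0, limma 3.58.1 (voom), other scalings, no filter, replicate blocks and omitted libraries. Libraries of a group all differed beyond counting noise (lowest chi-square per degree of freedom 28.1). Nothing says that all libraries of a group came from separate pools, so the spread behind the p-values may be technical. Named genes were the 3 kinases, Dnmt1, all GRK and arrestin genes, the called and the most abundant member of each signalling list, up to 3 neighbours on each side, and the 5 genes most correlated with each kinase. The most abundant member of 1 list is not reported here. The genes, lists and rules were chosen with earlier results of these data known. Promoter windows and gene order came from RefSeq (GRCm38.p6), and transcripts from GENCODE M21.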

Additional observations from a re-analysis of the deposited data

Results flagged for a closer look

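Among 18 sets of values checked for a sample far from the others of its group (chance marks about 1 in 20), 3 had one. Grk6 stood at 106 CPM in Dnmt1cKO 2, against 61.7 CPM in the next highest Dnmt1cKO library. Grk1 stood at 1.299 CPM in Dnmt1cKO 6, which was 13 counts, against 0.57 CPM in the next. Grk5 supplied 81.8% of the counts of Grk4, Grk5 and Grk6 in the library labelled Control 4, against 10.5% in the next Control, on a total of 22 counts.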

How the results depend on the processing

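Grk4, whose direction its selection fixed, had in the 20 alternatives log2 fold changes from 3.20 to 4.49, each within the SD between libraries of its value with all libraries. Leaving out 1 library gave 3.52 to 4.34 for Grk4, -1.41 to 0.49 for Grk5 and 0.018 to 0.91 for Grk6. Over the whole table edgeR called 132 genes higher and 198 lower, which became 170 and 726 with RLE factors and 113 and 47 with library totals alone. The median log2 fold change of all genes was 0.22, 0.072 and 0.38 under these scalings, and Grk4 had 3.87, 3.75 and 3.99. Counts were 515 and 1029 in DESeq2 but 7 and 25 in limma-voom. Leaving out Control 3 and the library labelled Control 4 gave 45 and 2, and leaving out 1 library gave 60 to 657 higher and 36 to 494 lower. Of the signalling lists, 2 members were called lower with RLE factors (Calm3 and Rock1) and 2 without the filter (Gng4 and Gngt2), DESeq2 called 3 higher and 4 lower, and leaving out 1 library gave 0 to 4 higher and 0 to 3 lower. The cause of these differences was not tested. With the median transcript length in place of the longest, Grk5 averaged 2.29 CPM per kilobase in Dnmt1cKO. The replicate block by description code, which left out Dnmt1cKO 1 and 2, gave 84 lower genes and a log2 fold change of 4.49 for Grk4. The block by title number, which left out Dnmt1cKO 5 to 8, gave 21 higher and 29 lower genes and 4.39 for Grk4. The median log2 fold change of all genes was 1.07 and 0.86 in these fits. Same-numbered libraries did not deviate together (correlations of deviations -0.052 to 0.096). With so few Controls, and with Control 3 and the library labelled Control 4 shallow, these correlations cannot settle whether the numbers pair libraries. Depth limits Grk5 and the Control levels, which rest on 22 counts of the 3 genes in the library labelled Control 4 and 133 in Control 3.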

Other observations

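The genes most like Grk5 and Grk6 were others than those most like Grk4. Over the 12 libraries Grk5 was followed by Uimc1 (Pearson r = 0.983), Polr1d (0.963), Yars2 (0.963), Snx11 (0.962) and Fam65a (0.956), and Grk6 by Cul4b (0.985), Cdca8 (0.976), Srprb (0.975), Utp15 (0.973) and Eya3 (0.971). Over the 8 Dnmt1cKO libraries the closest to Grk5 was Lrrk2, a kinase gene (0.988), and the closest to Grk6 was Ccdc14 (0.993).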
